A study of Mus musculus with 4 samples.

Results

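Nuclear import receptors of the importin alpha and importin beta families were followed in B16F10 cells, a mouse melanoma line, with and without knockdown of Lmna, which encodes the nuclear lamina proteins lamin A and lamin C. The group held 10 of the 24421 gene symbols of the count matrix: the importin alpha genes Kpna1, Kpna2, Kpna3, Kpna4 and Kpna6, and the importin beta family genes Kpnb1, Ipo5, Ipo7, Tnpo1 and Tnpo3. They were picked by symbol, and the family was picked because Kpna4 falls strongly in these libraries. Transcripts were counted at their 3′ ends by bulk MARS-seq in 4 libraries. In 2 of them (shControl 1 and 2) the B16F10 cells, of C57BL/6 origin, carried a control lentiviral vector that is named Control shRNA in the labels and listed as an empty vector in the study's methods, and in the other 2 (shLmna 1 and 2) the cells carried a vector with an shRNA against Lmna. All cells had been selected with puromycin and expanded in culture, so that the vector and the selection are shared by both groups. Any general effect of expressing a hairpin belongs to the comparison, as does any effect of its sequence on genes other than Lmna. Neither can be told apart from the loss of Lmna in these libraries. It is not stated whether libraries with the same vector were transduced or cultured separately, and p-values therefore measure the spread between libraries, which may be technical.

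Proteins that carry a nuclear localization signal cross the nuclear pore bound to receptors of the importin beta family. In the classical route an importin alpha acts as an adaptor, binding the cargo signal on one side and importin beta 1, the product of Kpnb1, on the other, and the small GTPase Ran releases the cargo inside the nucleus. Importin alpha is then carried back to the cytoplasm by CAS, the product of Cse1l. Other members of the beta family, such as importin 5, importin 7 and the transportins, can bind cargo directly. The importin alpha paralogs are adaptors of the same kind that differ in part of the cargo they prefer.

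Library totals were 3262632 and 3808843 counts in shControl against 2494880 and 3657167 in shLmna. As a check of the labels, Lmna itself had 2826 and 2684 counts in the control libraries and 331 and 480 after knockdown. The melanocyte lineage genes Pmel, Mlana, Dct, Tyrp1, Mitf and Sox10 were present in all 4 libraries but did not move together: in shLmna Pmel and Mlana were higher by log2 fold changes of 0.41 and 0.51 (edgeR adjusted p 0.0258 and 0.00510), Sox10 had -0.89 (0.00161), and Dct, Tyrp1 and Mitf, between -0.37 and -0.02, did not pass. Their part in the results below was not tested. Tyr, the tyrosinase gene, had between 1 and 7 counts, and Ptprc and Epcam, markers of leukocytes and epithelium, had 0 counts throughout. Markers of fibroblasts and endothelium were low but not absent. Col1a2 had 16 and 13 counts in shControl against 4 and 7 in shLmna, and Col1a1 had 6 and 13 against 2 and 10. Pecam1 had 2 and 4 against 0 and 1. Because the RNA was taken from bulk cultures, fewer cells with a transcript and less of it in each cell cannot be told apart. A count stands for a read in the last 1000 bases of a transcript, and the levels below are given as CPM, counts scaled to a common library size with edgeR's TMM factors, and not divided by transcript length, since the counted stretch is of the same length in every member.

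Kpna4, which encodes importin alpha 3, fell to a small fraction of its control level. It had 308 and 331 counts in shControl against 18 and 27 in shLmna, or 95.4 and 88.6 CPM against 7.12 and 7.36 CPM. Both shLmna libraries lay far below both shControl libraries, and the libraries within each group lay close together. The log2 fold change was -3.66 (SE 0.192, n = 2 per group), a level 12.6-fold lower, and no p is given because this fall is what chose the family. Of the 9150 genes tested, 170 had a lower log2 fold change than Kpna4. In the counts behind the second deposited table, which are smaller, Kpna4 had 280, 305, 16 and 27 counts, and the log2 fold change was -3.59. In the deposited batch-corrected log2 values, where fold changes are smaller for other genes too, it was -1.005.

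Kpna4 lies on the minus strand of chromosome 3, at bases 69067149 to 69127113 (GRCm38, the mm10 build). The counted stretch of its RefSeq-linked transcript, bases 69072221 to 69073220, is exonic and falls wholly in the 3′ UTR. Another annotated coding transcript ends 5072 bases further downstream, outside that stretch, and molecules ending there would not be counted. That other 3′ end has a GC content of 41.5%, against 30.9% in the counted one. The promoter of Kpna4 (chr3:69127043-69127342, minus strand, 250 bases before to 50 after the RefSeq start, GRCm38.p6) is printed here beside that of Kpnb1 (chr11:97187843-97188142, minus strand), since the 2 proteins form the classical import complex and their transcripts moved by very different amounts. Capitals mark CCAAT boxes and the GC box GGGCGG in either orientation, as found on both strands, and a match in these letters is not a shown binding site.
Kpna4: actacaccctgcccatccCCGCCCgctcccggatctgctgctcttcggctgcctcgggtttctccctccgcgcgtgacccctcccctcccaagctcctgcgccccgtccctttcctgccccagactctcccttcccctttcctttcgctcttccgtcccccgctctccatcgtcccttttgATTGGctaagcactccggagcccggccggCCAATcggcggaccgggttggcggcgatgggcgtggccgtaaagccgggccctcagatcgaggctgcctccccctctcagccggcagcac
Kpnb1: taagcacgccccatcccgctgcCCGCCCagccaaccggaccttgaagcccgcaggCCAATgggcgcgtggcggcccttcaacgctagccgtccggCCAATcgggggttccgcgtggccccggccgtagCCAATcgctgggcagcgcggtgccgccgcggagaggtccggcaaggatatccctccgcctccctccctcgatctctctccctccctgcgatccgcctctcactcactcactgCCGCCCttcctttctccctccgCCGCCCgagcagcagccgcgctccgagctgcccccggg
The Kpna4 promoter held 2 CCAAT boxes and 1 GC box, the Kpnb1 promoter 3 of each, and neither held a TATAAA box. Of the 32851 RefSeq promoters of this length, 37.4% held CCAAT, 35.7% held GGGCGG and 13.6% held TATAAA. The GC content was 68.7% in the Kpna4 promoter and 72.0% in that of Kpnb1, against a median of 52.7% over all promoters. RefSeq promoters were found for 7 of the 10 members.

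Base composition at the other end of the gene set Kpna4 apart from most members. The counted 3′ end of Kpna4 had a GC content of 30.9%, against a median of 46.9% over the tested genes, of which 0.743% had a lower one. Among the 200 other tested genes with a GC content within 2 percentage points of Kpna4, 100 were called lower (50%), their median log2 fold change was -1.42, and 52 had a lower log2 fold change than Kpna4. The other tested members had a 3′ end GC content from 34.6% in Tnpo1 to 44.4% in Kpna6. After a correction for a smoothed trend of each library on GC content, Kpna4 had a log2 fold change of -2.96 (SE 0.242), a level 7.76-fold lower. This moved it from -3.66, by less than the median of -1.42 of the genes of like GC content. Part of the local trend can therefore remain in the corrected value, and how much was not tested.

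**Figure D1:**
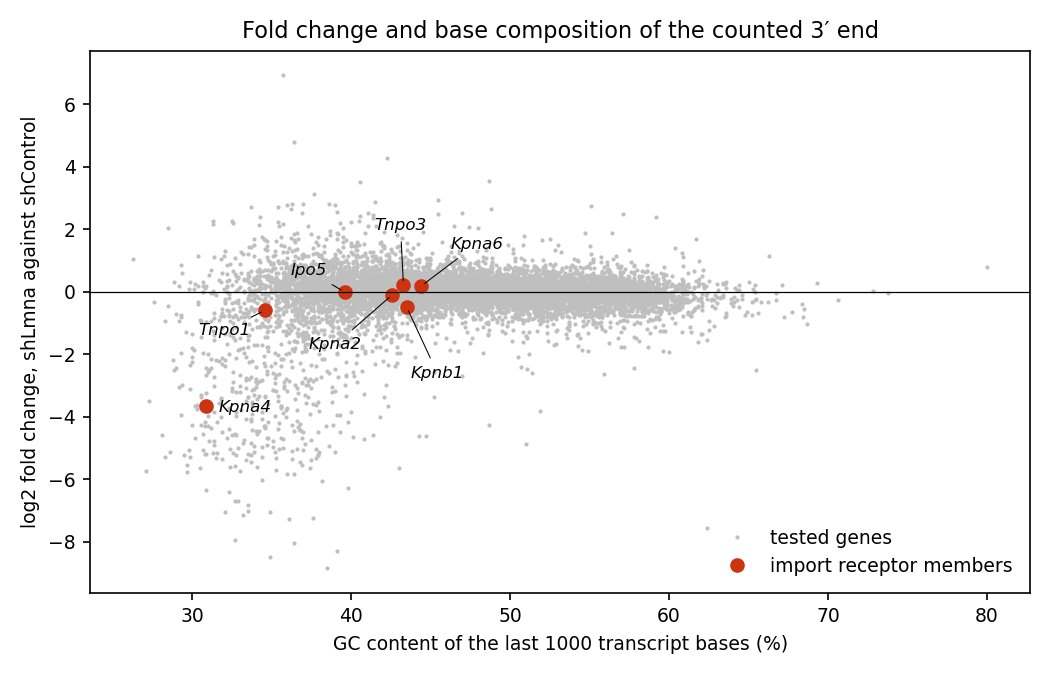
GC content of the last 1000 transcript bases (x axis, %) against the log2 fold change of shLmna over shControl (y axis) for the tested genes that have a GC value (grey points) and the 7 tested import receptor members (red points). Kpna4 sits at 30.9% and -3.66, where 100 of the 200 genes of like GC content were called lower, while the other 6 members lie between -0.59 and 0.22.

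Among the remaining importin alpha genes, Kpna6, which encodes importin alpha 7, was the one with steady counts. It had 187 and 175 counts in shControl against 161 and 201 in shLmna, or 57.9 and 46.9 CPM against 63.7 and 54.8 CPM. The groups overlapped, and the log2 fold change was 0.17 (SE 0.168). The ratio of Kpna4 to Kpna6 counts, which does not depend on the scaling between libraries, was 1.65 and 1.89 in shControl and 0.112 and 0.134 in shLmna. The log2 fold change of Kpna4 minus that of Kpna6 was -3.83 (SE 0.255).

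The closest relative of Kpna4 by sequence is Kpna3, which encodes importin alpha 4, with 74.97% identical bases over 1566 aligned coding bases. Kpna1 and Kpna6 form the other close pair, at 74.1%, and the remaining pairs of the 5 paralogs were between 58.1% and 61.2% identical. The counted 3′ ends are distinct in spite of this, as no pair of paralogs shared any stretch of 31 bases there.

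Kpna3 and Kpna1, which encodes importin alpha 5, were seen almost entirely in a single library. Kpna3 had 0 and 45 counts in shControl against 0 and 2 in shLmna. Kpna1 had 1 and 40 counts in shControl against 0 and 1 in shLmna. In both genes shControl 2 stood alone and shControl 1 resembled the shLmna libraries, so that no fold change between groups is given, and neither gene passed the filter on low counts. With 3 counts as the floor of detection, 0 counts allow up to 0.929 CPM in shControl 1 and 1.19 CPM in shLmna 1, by counting error only. In the whole matrix 14 genes had at most 1 count in shControl 1 and at least 40 in shControl 2, with a median 3′ end GC content of 35.2%, and 0 genes showed the opposite. These limits equal the counts of Kpna1 itself, and both Kpna1 and Kpna3 are among the 14, so the number is a description only. The 3′ ends of Kpna3 and Kpna1 had 35.6% and 39.4% GC.

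Kpna2, which encodes importin alpha 1, an adaptor known from dividing cells, could not be read reliably. It had 32 and 29 counts in shControl but 46 and 0 in shLmna, so that the shLmna libraries lay on either side of the controls. The log2 fold change of -0.10 (SE 0.956) rested on that pair, being 1.06 without shLmna 2, while without shLmna 1 the group is at 0 counts and the fitted -7.97 depends on the prior count and bounds nothing. Of the 31-base stretches of its counted 3′ end, 99.4% also occur in transcripts of other genes, most often of Gm10184, and the way such reads were assigned can set its counts. By the same limits, which equal the shControl counts of Kpna1, Kpna2 was the only gene of the matrix with at least 40 counts in shLmna 1 and at most 1 in shLmna 2. The opposite held for 1 gene.

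**Figure D2:**
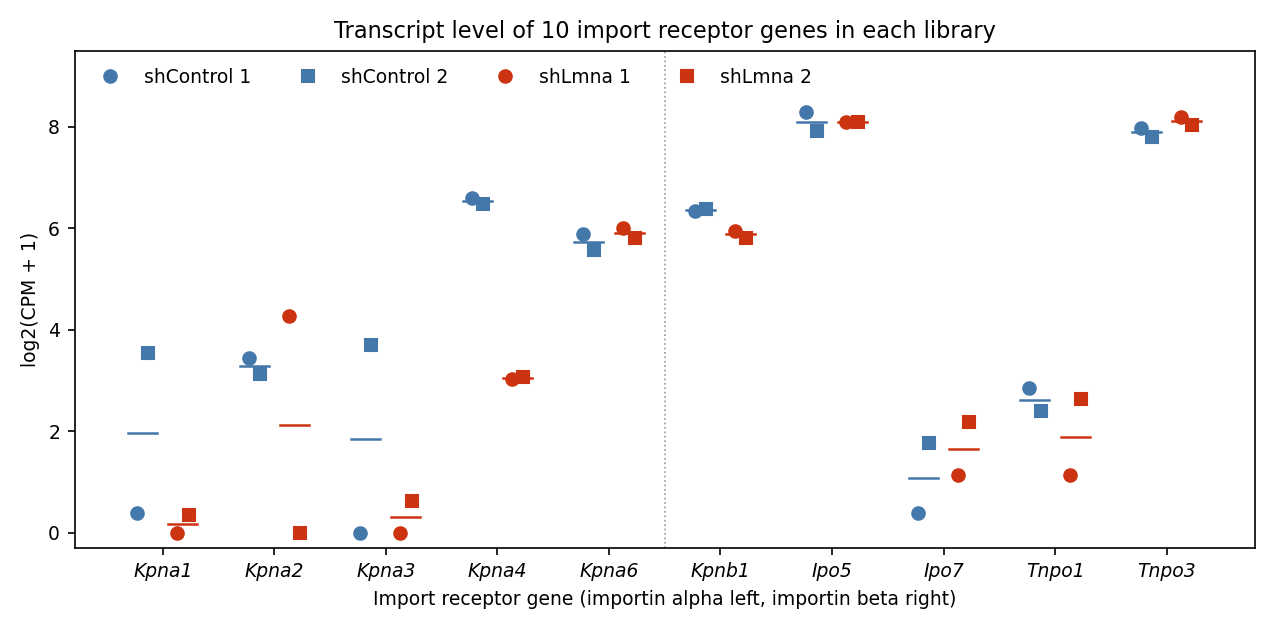
Level of each of the 10 members in each library, as log2(CPM + 1) on the y axis, with shControl in blue, shLmna in red, circles for library 1, squares for library 2 and short lines for the group mean of these log2 values. Kpna4 separates the groups (95.4 and 88.6 against 7.12 and 7.36 CPM), whereas Kpna1, Kpna2 and Kpna3 differ between libraries of the same group.

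The make-up of the importin alpha pool changed with Kpna4. In counts summed over the 5 paralogs, Kpna4 took 58.3% of 528 counts in shControl 1 (95% Wilson interval 54.1% to 62.5%) and 53.4% of 620 in shControl 2 (49.5% to 57.3%). In shLmna it took 8.00% of 225 counts (5.12% to 12.3%) and 11.7% of 231 (8.16% to 16.5%). Kpna4 was thus the most counted importin alpha in both shControl libraries and came after Kpna6 in both shLmna libraries, where Kpna6 took 71.6% and 87.0%. In shLmna 1 it also came after Kpna2, whose share was 20.4% there and 0% in shLmna 2. These intervals cover counting error only, and the shares follow from the same fall that chose the family.

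Summed over the 5 paralogs, importin alpha transcripts stood at 163.5 and 166.0 CPM in shControl and at 89.0 and 62.9 CPM in shLmna. The groups did not overlap, which was also so for 60.1% of all tested genes, and the mean was 53.9% lower in shLmna, or 57.1% lower without Kpna2. This sum contains Kpna4, so its fall follows from the one that chose the family. The sum without Kpna4 was 72.8 ± 6.53 CPM (SD, n = 2) in shControl and 68.7 ± 18.6 CPM (SD, n = 2) in shLmna. The difference between these latter means was smaller than the spread between the shLmna libraries.

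**Figure D3:**
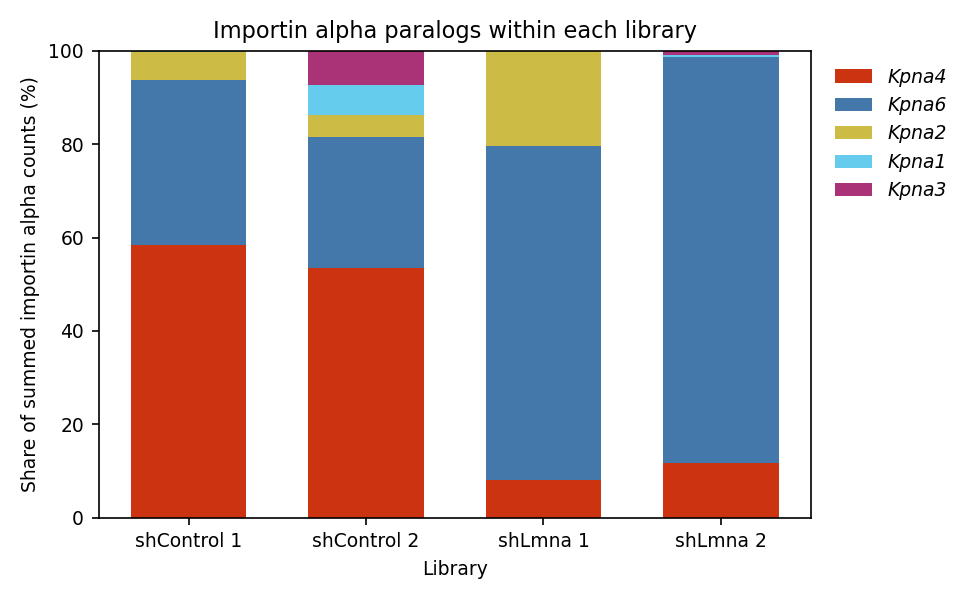
Share of each importin alpha paralog (y axis, % of the counts summed over Kpna1, Kpna2, Kpna3, Kpna4 and Kpna6) in each of the 4 libraries. Kpna4 fills 58.3% and 53.4% of the bars of shControl 1 and 2 and 8.00% and 11.7% of those of shLmna 1 and 2, while the Kpna6 part grows to 71.6% and 87.0%.

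Kpnb1, the importin beta 1 partner of these adaptors, was lower by a much smaller factor. It had 259 and 307 counts in shControl against 153 and 203 in shLmna, or 80.2 and 82.2 CPM against 60.5 and 55.3 CPM. The groups did not overlap, which was also so for 60.1% of all tested genes. Its log2 fold change was -0.49 (SE 0.140). The adjusted p of the edgeR quasi-likelihood test was 0.0420, and it ranged from 0.00704 to 0.263 over 14 alternatives and was over 0.05 in 6 of them, among them DESeq2 (0.252) and the omission of shControl 2 or of either shLmna library. In counts, Kpna4 exceeded Kpnb1 in shControl, with ratios of 1.19 and 1.08, and fell to ratios of 0.118 and 0.133 in shLmna. The ratio of Kpna6 to Kpnb1 was 0.722 and 0.570 in shControl and 1.05 and 0.990 in shLmna, and their log2 fold changes differed by 0.67 (SE 0.219).

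The most abundant members were Ipo5 and Tnpo3. Ipo5 encodes importin 5, a carrier of ribosomal proteins and histones among other cargo, and had 1004 and 898 counts in shControl against 693 and 1000 in shLmna. Its levels of 311.0 and 240.4 CPM against 274.1 and 272.5 CPM overlapped, with both shLmna libraries between the controls, and the log2 fold change was -0.01 (SE 0.144), which turned positive under 7 of 14 alternatives. Tnpo3 encodes transportin 3, the importer of SR splicing factors. It had 811 and 834 counts in shControl against 739 and 961 in shLmna, or 251.2 and 223.3 CPM against 292.3 and 261.8 CPM. The groups did not overlap, which was also so for 60.1% of all tested genes. The shLmna libraries were the higher ones, by a log2 fold change of 0.22 (SE 0.128) whose edgeR adjusted p was 0.281, with a range from 0.0171 to 0.701 over 14 alternatives, under 0.05 in 1 of them, limma on the batch-corrected values (log2 fold change 0.15). At these depths the standard errors of Ipo5, Tnpo3, Kpnb1 and Kpna6 were between 0.128 and 0.168 on the log2 scale. Changes of that size or smaller, and also larger ones such as the 0.22 of Tnpo3, could not be told from none by the edgeR test.

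Tnpo1 and Ipo7 were counted rarely. Tnpo1, which encodes transportin 1, a receptor of hnRNP proteins, had 20 and 16 counts in shControl against 3 and 19 in shLmna. Its groups overlapped, and its log2 fold change of -0.59 (SE 0.562) went from -2.09 without shLmna 2 to -0.01 without shLmna 1. Ipo7, which encodes importin 7, had 1 and 9 counts in shControl against 3 and 13 in shLmna and did not pass the filter. Both had a 3′ end GC content of 34.6%. Among the 637 tested genes within 2 percentage points of Tnpo1, 28.1% were called lower, and Tnpo1 was not.

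By level in shControl, Ipo5 (mean 275.7 CPM) and Tnpo3 (237.2 CPM) came first with overlapping libraries, followed by Kpna4 (92.0 CPM), Kpnb1 (81.2 CPM) and Kpna6 (52.4 CPM), whose libraries did not overlap. Kpna2, Kpna3, Kpna1, Tnpo1 and Ipo7 were below 10 CPM on average, and differences among them were within the spread of their libraries except for Kpna2 over Tnpo1 and Ipo7, and Tnpo1 over Ipo7. In shLmna the means were 277.1 CPM for Tnpo3 and 273.3 CPM for Ipo5, with overlapping libraries, then 59.2 CPM for Kpna6 and 57.9 CPM for Kpnb1, which overlapped as well. Kpna4 came after these, at 7.24 ± 0.168 CPM (SD, n = 2), between the 0 and 18.2 CPM of Kpna2.

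Counted over the family, 7 of the 10 members passed the filter on low counts, namely Kpna2, Kpna4, Kpna6, Kpnb1, Ipo5, Tnpo1 and Tnpo3. Calls required 3 limits to be passed together, an adjusted p under 0.05, a log2 fold change over 1 in size and a mean normalized count over 5. Kpna4 was called lower, where 5.88% of all tested genes were, and with edgeR 0 members were called higher, against 1.76% of all genes. By adjusted p alone (edgeR, under 0.05), 2 members passed, Kpna4 and Kpnb1, both lower, against 15.2% of all tested genes (9.74% lower and 5.48% higher), and 0 of the 7 were higher at an unadjusted edgeR p under 0.05, against 13.6% of all tested genes. With limma on the batch-corrected values 3 members passed by adjusted p, Tnpo3 being the added one, and higher. The median log2 fold change was -0.10 over the 7 tested members and -0.00107 over all tested genes. Since this contrast chose the family, nothing is read from these counts. When shControl 1 was left out, or the filter dropped, 3 members were called lower, Kpna1 and Kpna3 being added by shControl 2, and without shLmna 1 there were 2, Kpna2 being added by its 0 counts in shLmna 2.

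Other genes of the import machinery were taken by family and function. Of 11 further import receptors and carriers in the matrix, 9 were tested, and 1 of them was higher and 0 were lower at an edgeR adjusted p under 0.05, against 5.48% and 9.74% of all tested genes. At an unadjusted p under 0.05, 2 passed, 1 of them higher, against 13.6% of all genes higher, and 0 passed by adjusted p with DESeq2. The gene that passed was Tnpo2, which encodes transportin 2, the close relative of transportin 1. It had 301 and 372 counts in shControl against 314 and 503 in shLmna, or 93.2 and 99.6 CPM against 124.2 and 137.0 CPM. The groups did not overlap, which was also so for 60.1% of all tested genes. Its log2 fold change was 0.44, with an SE of 0.128. The edgeR adjusted p of 0.0459 ranged from 0.00603 to 0.263 over 14 alternatives and was over 0.05 in 5, among them the GC correction (0.0797), DESeq2 (0.177) and the omission of shControl 1 or of either shLmna library. For Ipo13, a receptor that also exports cargo, the log2 fold change was -0.34 (edgeR adjusted p 0.153). Ipo4, Ipo8, Ipo9, Ipo11, Snupn, Nutf2 and l7Rn6 (the older symbol of Hikeshi) had log2 fold changes between -0.22 and 0.35, and 91.3% of the 31-base stretches of Nutf2 occur in other genes. Kpna7, an importin alpha known from oocytes, had 0 counts in each library, and Ranbp6 had at most 5.

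Of 8 genes of the Ran cycle and importin recycling, 7 were tested, and 1 was higher and 0 lower at an edgeR adjusted p under 0.05, against 5.48% and 9.74% of all tested genes. At an unadjusted p under 0.05, 2 were higher, against 13.6%. The gene that passed after adjustment was Cse1l, whose product CAS returns importin alpha to the cytoplasm. It had 401 and 457 counts in shControl against 460 and 623 in shLmna, or 124.2 and 122.4 CPM against 181.9 and 169.7 CPM. Both shLmna libraries were above both controls, and 60.1% of all tested genes likewise had no overlap between the groups. The log2 fold change was 0.51 (SE 0.120). The edgeR adjusted p was 0.0193, and it lay between 0.00211 and 0.162 over 14 alternatives, over 0.05 when either shLmna library was left out (0.162 without shLmna 1 and 0.103 without shLmna 2). Ran, the GTPase that drives the cycle, had 71.2 and 72.3 CPM in shControl and 87.0 and 106.5 CPM in shLmna, a log2 fold change of 0.44 with an edgeR adjusted p of 0.0758. Rcc1, Rangap1, Ranbp1, Ranbp3 and Nup50, which charge, discharge or assist Ran or release cargo, had log2 fold changes between -0.13 and 0.22. Ranbp2, a Ran-binding protein of the pore filaments, had too few counts to be tested, at 3 and 21 in the controls and 0 and 4 after knockdown.

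**Figure D4:**
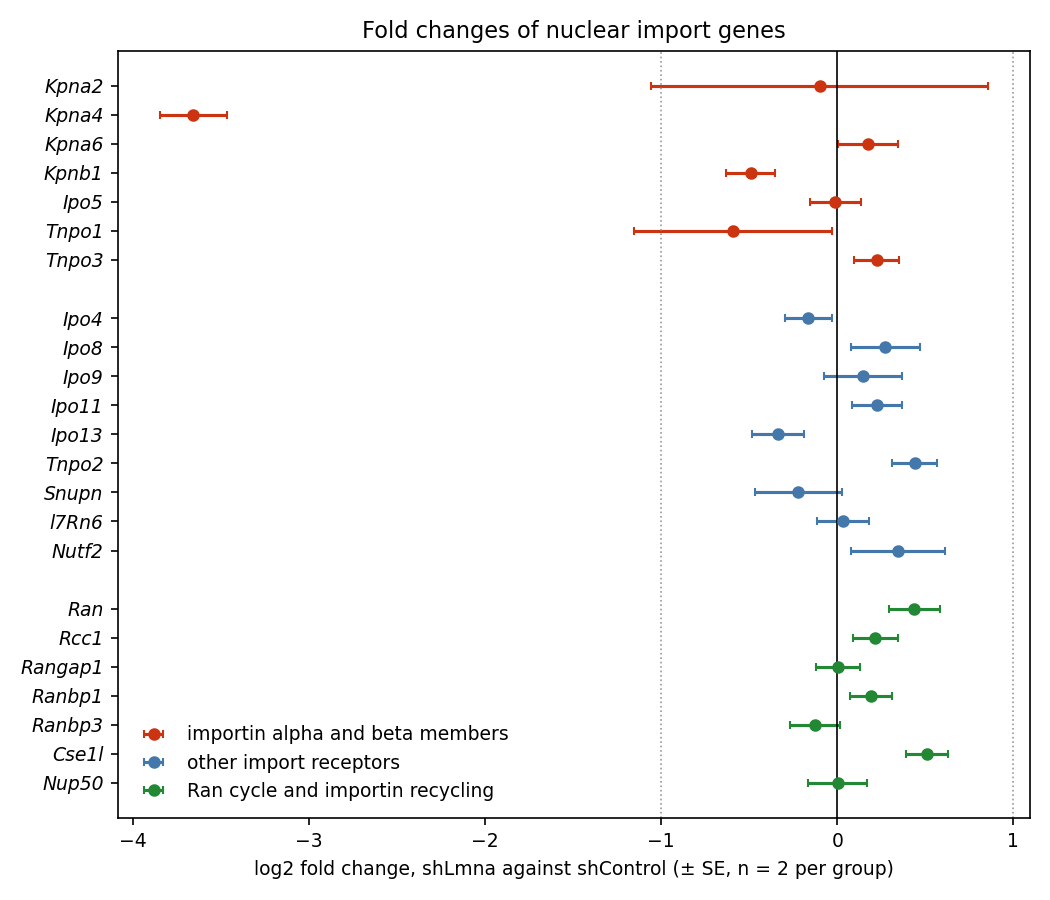
Log2 fold change of shLmna against shControl (x axis, points with ± SE bars, n = 2 per group) for the tested members (red), other import receptors (blue) and genes of the Ran cycle and importin recycling (green), with dotted lines at a log2 fold change of -1 and 1. Kpna4 stands alone at -3.66, and the other points lie between -0.59 (Tnpo1) and 0.51 (Cse1l), with wide bars for Kpna2 and Tnpo1.

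The 5 tested genes whose pattern over the 4 libraries was most like that of Kpna4, by Euclidean distance between log2(CPM + 1) values centred on each gene's mean, were Caprin1, Manea, Lbr, Xpot and Bivm. Their distances were 0.150, 0.159, 0.166, 0.183 and 0.193. Caprin1, an RNA-binding protein gene, had 106 and 114 counts in shControl against 4 and 6 in shLmna. Lbr, the lamin B receptor gene, had 99 and 113 against 5 and 6. Xpot, the exportin of tRNA and itself of the importin beta family, had 67 and 81 against 3 and 4. Manea had 43 and 49 against 1 and 1, and Bivm had 30 and 39 against 0 and 0. Log2 fold changes of the 5 ran from -8.03 in Bivm to -4.07 in Lbr, beside -3.66 in Kpna4. The 1 added to each CPM narrows such differences near 0. The 3′ end GC content of the 5 ran from 33.4% in Lbr to 39.8% in Xpot, against a median of 46.9% over the tested genes. Ipo5, at 39.6%, had a log2 fold change of -0.01. The nearest tested member of the family was Tnpo1, at a distance of 2.95, which ranked 1166 among all tested genes.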

How the data were processed

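Bulk MARS-seq libraries (2 shControl and 2 shLmna) were analysed, grouped by sample title. According to the study's methods, the authors trimmed reads with Cutadapt, aligned them to mm10 with STAR 2.4.2a and used HTSeq to assign them to a window of 1000 bases at the 3′ end of each RefSeq gene plus 100 bases after it, counting molecular identifiers once duplicates had been marked. The authors deposited raw counts per gene symbol, the input of the main test, and which of the deposited tables follow the marking of duplicates is not stated. A second table holds a deposited signal, counts divided by a DESeq2 size factor; 100% of its values were whole multiples of a step (tolerance 0.01), and the recovered counts were used as an alternative. Its columns of the authors' p-values were not used. The remaining table holds deposited log2 values corrected for batch with ComBat, the batches being unnamed.

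Counts were tested with edgeR 4.0.16 in R 4.3.3 (quasi-likelihood F test, two-sided, TMM, filterByExpr, group as the one term) and p-values adjusted over 9150 genes by the Benjamini-Hochberg method. Standard errors (SE) came from the F statistic. For a difference between 2 genes, their SEs were combined as if independent, although both genes were measured in the same libraries. Limits for a call follow the study's methods, where DESeq2 supplied the p-values. Replicates differed by more than sampling noise (chi-square per degree of freedom 6.96 in shControl and 3.91 in shLmna) and were counted separately. Tests were checked on simulated counts. Alternatives were other scalings, no filter, DESeq2 1.42.0, limma 3.58.1 on the batch-corrected values, a replicate block, a GC correction (lowess offset, span 0.3) and the omission of each library. Gene models are GENCODE M21 (GRCm38), each gene read from its longest RefSeq-linked transcript. Genes named are the 10 members, Lmna, genes of 2 further lists of import genes and the 5 genes most like Kpna4. Members and lists were chosen with earlier results of these data known.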

Additional observations from a re-analysis of the deposited data

How the results depend on the processing

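Kpna4 was lower under all 14 alternatives, by log2 fold changes from -3.71 to -1.005 (-3.71 to -3.60 when 1 library was left out), and Lmna from -2.74 to -1.54. The Kpna4 share of importin alpha counts was 46.0 percentage points lower in shLmna, a value of -44.9 with recovered counts and -48.5 to -43.5 with 1 library left out. Counts of calls moved more, with the cause not tested. The batch-corrected values were held to the same limit of 1 in log2 fold change, although fold changes are smaller on that scale. Caprin1, for example, went from -4.26 to -0.71 there. Over all genes the 538 lower and 161 higher calls became 28 and 2 with the batch-corrected values, the higher calls 66 with DESeq2, and with 1 library left out they were 387 to 750 and 60 to 232. Members called lower were 3 without the filter and 1 to 3 with 1 library left out. Members with an adjusted p under 0.05 were 1 with library totals, upper quartile factors or DESeq2, 4 without the filter, 3 with the batch-corrected values, where Tnpo3 was added, and 1 to 4 with 1 library left out. The other import receptors had 0 with DESeq2 or the GC correction, 2 with the batch-corrected values and 0 to 1 with 1 library left out. The Ran cycle genes had 3 without the filter or with the batch-corrected values, 2 with the replicate block and 0 to 2 with 1 library left out. Whether libraries with the same replicate number shared a batch is not stated. Deviations of same-numbered libraries had a correlation across genes of 0.0129, which cannot decide this, being 1 value over all genes. In the batch-corrected values Kpna3 was at 7.25 in shLmna 1 with 0 counts and at 7.10 in shLmna 2 with 2 counts. A correction by replicate number was not tested there. The replicate block gave 605 lower and 209 higher calls.

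Directions turned for genes close to 0. Kpna2 was 0.043 with DESeq2 and -7.97 to 1.06 with 1 library left out. Ipo5 was 0.020 with library totals, 0.018 with upper quartile factors, 0.0036 with the batch-corrected values, 0.00044 with the replicate block, 0.0016 with recovered counts and -0.19 to 0.19 with 1 library left out. Nup50 was -0.0081 with the replicate block, -0.066 with the GC correction, -0.075 with both and -0.20 to 0.18 with 1 library left out. l7Rn6 was -0.0021 with GC correction and replicate block and -0.10 to 0.16 with 1 library left out, and Rangap1 -0.0029 with the replicate block and -0.13 to 0.14. With 1 library left out Ipo9 was -0.086 to 0.39 and Ranbp3 -0.27 to 0.035. Fits that leave out 1 library assume that the lone library of its group varies like the others. Depth limits the precision for Kpna2 and Tnpo1, whose standard errors were 0.956 and 0.562 on the log2 scale.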
